A study of Mus musculus with 12 samples.

Results

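The 55 genes described here encode the proteins that mark, license and fire the origins of DNA replication, unwind and copy the DNA, supply its nucleotides and repackage the copied strands. They were chosen by gene symbol in 12 roles, not by a measured value, but with earlier results of these data known. All 55 had a row among the 33100 gene rows of the count table. RNA was sequenced in bulk from mouse cells labelled as natural killer (NK) cells, lymphocytes of the innate immune system that kill tumor and infected cells. The cells were sorted from 2 sites, spleen and tumor, and from 2 genotypes, wild-type (WT) mice and mice in which 1 gene was deleted by a conditional knockout (cKO). Each of the 4 combinations of site and genotype has 3 libraries. The labels state no strain, age or treatment of the mice, no tumor model and no promoter that drives the deletion. They do not tie each library to its own animal, so every p-value here speaks only to the spread among libraries, which may be technical.

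In a cycling cell the origin recognition complex and its partners load the MCM helicase onto DNA before S phase, and cyclin E with CDK2, together with firing factors, then turns the loaded helicase into an active fork. Polymerases held by the sliding clamp PCNA copy both strands, ligase joins the Okazaki fragments of the lagging strand, and chromatin assembly factors place histones on the new DNA. Transcription of many of these genes is controlled by E2F factors and peaks near the start of S phase, so as a group they are commonly read as a sign of dividing cells. Resting lymphocytes express them at a low level and raise them when cytokines drive their division.

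The libraries held 9542329 to 13753737 counts in spleen and 15765906 to 37118494 in tumor. All 55 genes were among the 16831 with enough reads to be tested, and the smallest count of any of them in any library was 10, for Orc1. Levels between libraries are given as CPM, read counts set to a common library total after scaling for composition. Markers of NK cells summed to 1328 to 1726 CPM in spleen WT and 1360 to 1702 in spleen cKO, but in tumor to 60.3 to 207 (WT) and 44.4 to 64.6 (cKO). The labelled cell type was thus only weakly met by its markers in tumor. Macrophage markers summed to 329 to 411, 577 to 781, 13274 to 28199 and 1539 to 4355 CPM in the same order of groups. B-cell markers summed to 2997 to 3423, 2723 to 3131, 28.4 to 106 and 15.6 to 48.2. In both spleen groups they thus lay above the NK-cell sums, so the spleen libraries also carried markers of another cell type. T-cell markers summed to 87.6 to 113, 116 to 194, 251 to 325 and 525 to 711. All listed markers of these 4 cell types (11, 13, 10 and 11 genes) had a row, and none was at 0 in all libraries of a group. Tumor WT replicate 2 had the highest macrophage sum of tumor WT and tumor cKO replicate 3 the lowest of tumor cKO, and within their groups they were the highest library for 41 and for 54 of the 55 genes. Among 14643 genes with a mean above 1 CPM, the same libraries were the highest of their group for 46.3% and 44.6%.

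**Figure D1:**
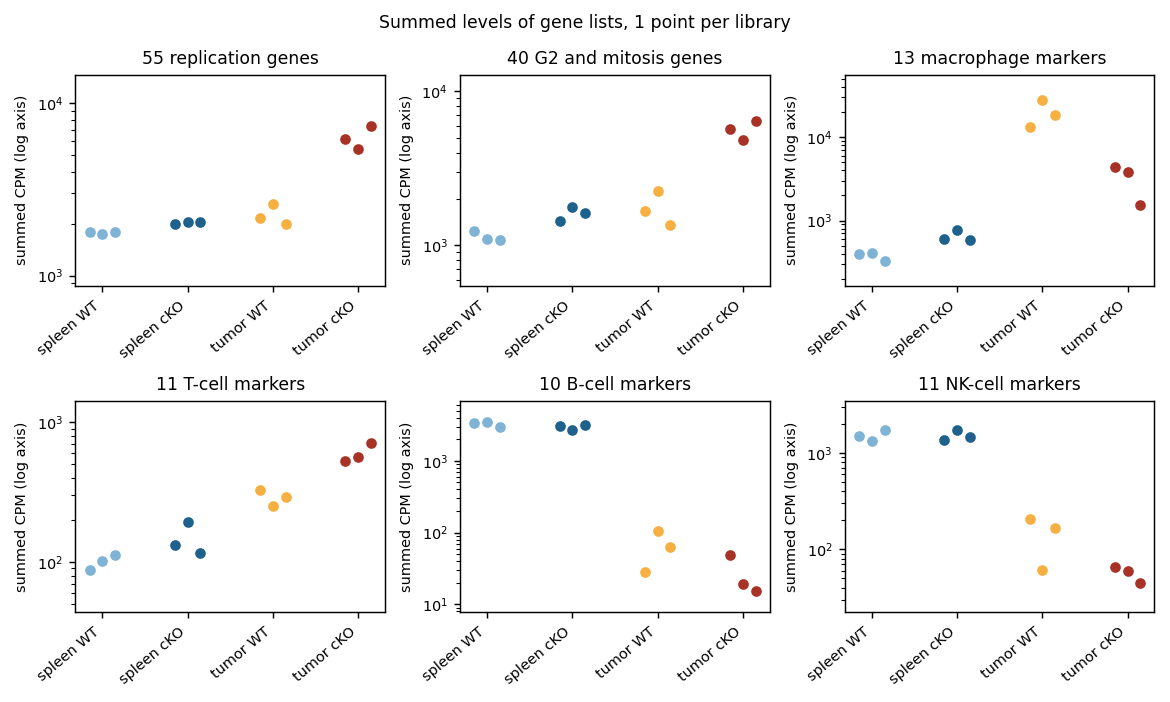
Summed CPM (log axis) of 6 gene lists in each of the 12 libraries, 1 point per library, by group. The 55 replication genes summed to 5435 to 7315 CPM in tumor cKO and to at most 2586 in any other library, while macrophage markers were highest in tumor WT and B-cell and NK-cell markers in spleen.

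Together the 55 genes took 0.573% to 0.761% of all counts in tumor cKO and 0.179% to 0.247% in tumor WT. In spleen they took 0.203% to 0.213% in cKO and 0.177% to 0.183% in WT. Their summed level in spleen was 1789.6, 1742 and 1792 CPM in the WT libraries and 1998, 2036 and 2043 in the cKO libraries. In tumor it was 2164, 2586 and 1999.9 CPM with the gene intact and 6185, 5435 and 7315 with it deleted. The tumor cKO libraries thus stood apart from the other 9, and spleen cKO lay above spleen WT without overlap. For 53 of the 55 genes tumor cKO had the highest group mean, and for 50 all 3 tumor cKO libraries lay above every one of the other 9 libraries. The same held for 13.3% of the 14643 genes above 1 CPM. The 5 of the 55 for which it did not hold were Gins4, Rfc2, Rfc5, Pold1 and Rpa2. Spleen WT had the lowest mean for 37 genes, tumor WT for 10, spleen cKO for 7 and tumor cKO for 1, Rfc2.

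**Figure D2:**
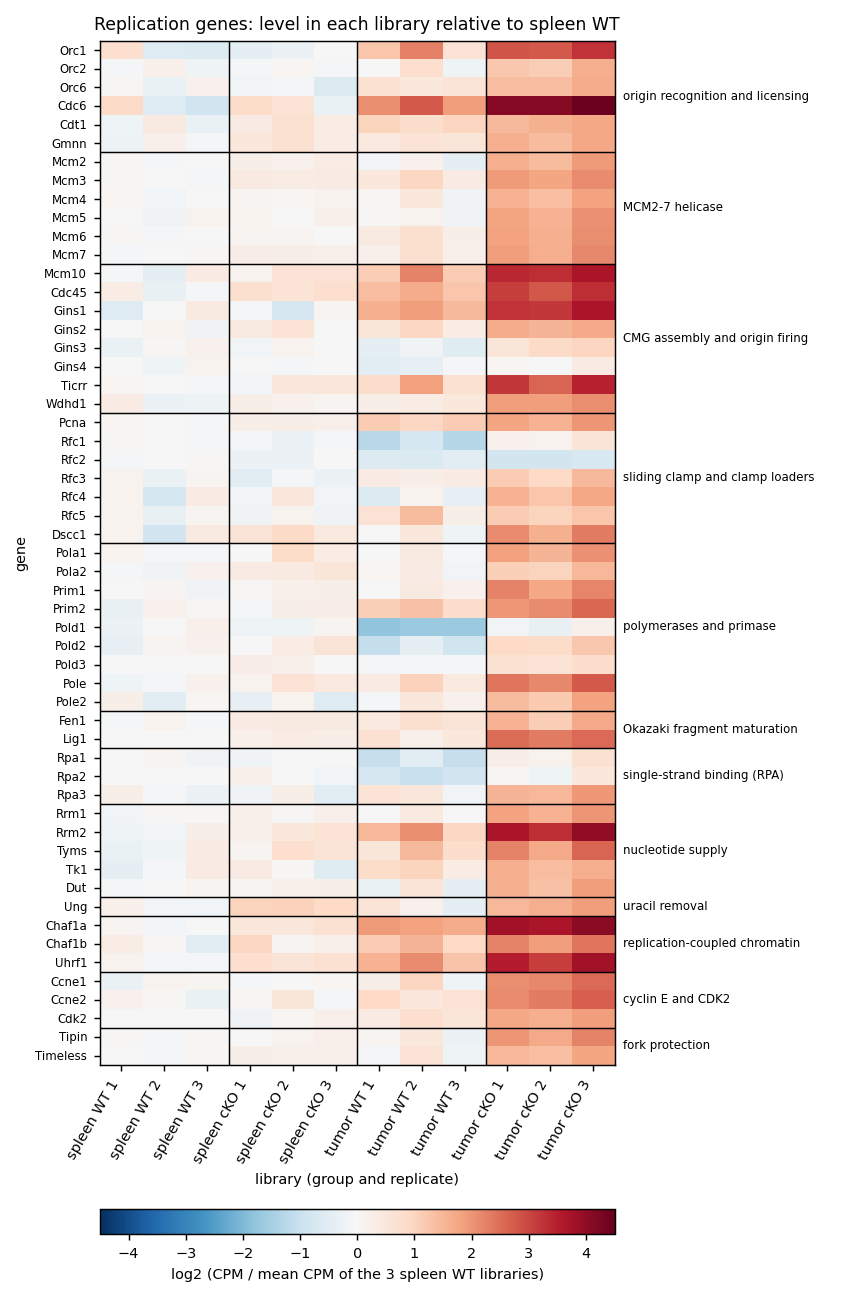
Level of each of the 55 genes (rows, grouped by role) in each library (columns), as log2 of CPM over the mean CPM of the 3 spleen WT libraries. The tumor cKO columns are red in nearly every row, the tumor WT columns are mixed, with Pold1, Rfc1, Rpa1 and Rpa2 blue, and Rfc2 is blue in all tumor libraries.

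The genotypes were first compared at the tumor site, where the study's title places the role of the deleted gene in NK cells. Of the 55 replication genes 53 were higher in tumor cKO than in tumor WT at an adjusted p under 0.05 (edgeR quasi-likelihood test, Benjamini-Hochberg over all genes tested), and none was lower. Over all genes tested, 16.4% were called higher and 21.6% lower. Values after ± a log2 fold change are standard errors of the fit. The median log2 fold change of the 55 was 1.40, with the middle of the genes between 1.07 (lower quartile) and 1.76 (upper quartile), against a median of -0.12 over all genes tested. For 53 genes every tumor cKO library lay above every tumor WT library and for 1, Rfc2, every one lay below, against 23.0% and 27.3% of all genes tested. The 2 genes not called were Rfc2 and Rfc5. In bulk RNA a larger share of cells in S phase and more of these transcripts per cell cannot be told apart. The macrophage markers fell in the same comparison (12 of 13 called lower, median log2 fold change -2.72), T-cell markers were higher in 4 of 11 and lower in 1, and 8 of 11 NK-cell markers were lower; their part in the result was not tested.

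The origin recognition complex and the licensing factors act before S phase, and all 6 genes of this role rose in tumor cKO over tumor WT. Cdc6 (chr11:98907801-98923940, plus strand), the ATPase that helps load the MCM helicase at origins, measured 5.31, 1.96 and 1.61 CPM in WT spleen and 5.28, 4.51 and 2.42 in cKO spleen. Tumor levels of Cdc6 were 12.6, 19.9 and 10.97 CPM in WT and 50.7, 50.2 and 62.9 in cKO. Its levels were low in spleen, intermediate in tumor WT and highest in tumor cKO, with no overlap between tumor WT and either neighbour. The tumor genotypes differed by 1.91 ± 0.38 (adjusted p = 0.00206), a 3.75-fold higher level in cKO. Orc1 (chr4:108579423-108614833, plus strand), the subunit of the origin recognition complex that varies over the cell cycle, was low in spleen, with 2.43, 0.979 and 0.945 CPM in WT spleen and 1.101, 1.203 and 1.42 in cKO spleen. Tumor levels of Orc1 were 3.43, 7.05 and 2.29 CPM in WT and 10.2, 9.86 and 13.7 in cKO. It rose by 1.39 ± 0.43 in tumor (adjusted p = 0.0212), a call that was lost without tumor WT replicate 1 (adjusted p = 0.0705), without tumor WT replicate 3 (0.0688) and without tumor cKO replicate 3 (0.0847). Cdt1 (chr8:122568015-122573554, plus strand), which brings the helicase to the origin, measured 10.8, 16.5 and 10.02 CPM in WT spleen and 16.2, 20.1 and 15.7 in cKO spleen. Tumor levels of Cdt1 were 24.9, 21.4 and 24.05 CPM in WT and 34.1, 37.5 and 41.5 in cKO. The step between the tumor groups was among the smallest of the called genes, at 0.69 ± 0.19 (adjusted p = 0.0135), and its adjusted p was 0.0528 without tumor cKO replicate 3. Gmnn (chr13:24751845-24761923, minus strand), which encodes geminin, the inhibitor of CDT1 that blocks a repeat of licensing, gave 9.105, 12.5 and 10.4 CPM in WT spleen and 14.97, 17.2 and 13.4 in cKO spleen. Tumor levels of Gmnn were 14.5, 16.2 and 15.6 CPM in WT and 33.2, 28.4 and 35.6 in cKO. It rose by 1.07 ± 0.17 (adjusted p = 0.000493), so the licensing factor and its inhibitor were both higher in tumor cKO. The other subunits of the role, Orc2 and Orc6, rose by 1.08 ± 0.23 and 0.91 ± 0.19. Of Orc2's exonic bases 29.8% also lie in the opposite-strand gene Nif3l1 and of Orc1's 10.8% in Gm12743, and the sources do not state whether counting used strand, so reads in the shared bases cannot be assigned.

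The MCM2-7 helicase is a ring of 6 proteins that unwinds the DNA, and its 6 genes rose together, each higher in tumor cKO by a log2 fold change between 1.35 and 1.79. Mcm2 (chr6:88883474-88898780, minus strand) measured 109.9, 104 and 108 CPM in WT spleen and 129.8, 123 and 133 in cKO spleen. Tumor levels of Mcm2 were 98.3, 123 and 81.1 CPM in WT and 335, 289 and 401 in cKO. Its tumor WT libraries overlapped the spleen WT libraries, and its tumor cKO libraries lay far above all others. The rise in tumor was 1.76 ± 0.15 (adjusted p = 1.67e-05). Mcm5 (chr8:75109569-75128439, plus strand) showed the same picture with 81.3, 71.4 and 88.9 CPM in WT spleen and 90.6, 80.5 and 94.3 in cKO spleen. Tumor levels of Mcm5 were 83.96, 89.5 and 72.7 CPM in WT and 277, 237 and 338 in cKO. Mcm5 rose by 1.79 ± 0.15 (adjusted p = 1.29e-05), the largest change of the 6. Mcm7 rose by 1.49 ± 0.16, Mcm4 by 1.44 ± 0.16, Mcm6 by 1.37 ± 0.14 and Mcm3 by 1.35 ± 0.14. Mean levels in tumor cKO ran from 119 ± 18.7 CPM for Mcm4 to 396 ± 49.5 for Mcm3 (SD, n = 3).

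Because the MCM genes and Cdc6 are textbook targets of E2F factors, the 250 bases upstream of their RefSeq starts (build GRCm38.p6) are shown for Mcm5, Mcm6 and Cdc6, together with Rrm2, the gene with the largest rise in tumor cKO, which had no match. They are written 5′ to 3′ on the strand of the gene, and capitals mark matches on either strand to the E2F motifs TTTCCCGC, TTTCGCGC, TTTGCCGC and TTTGGCGC. These 4 promoters were picked after the values were seen, and the window of Mcm2, which is not shown, held no match. The Cdc6 window lies inside the Cdc6 gene of the count table, which starts at base 98907801, so its match is downstream of that start.
Mcm5 (chr8:75109259-75109508, plus strand): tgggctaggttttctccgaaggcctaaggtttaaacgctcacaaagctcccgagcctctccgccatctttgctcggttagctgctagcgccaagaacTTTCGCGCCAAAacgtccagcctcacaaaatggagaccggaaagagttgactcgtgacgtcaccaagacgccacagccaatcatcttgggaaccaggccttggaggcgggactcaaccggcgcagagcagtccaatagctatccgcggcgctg
Mcm6 (chr1:128359706-128359955, minus strand): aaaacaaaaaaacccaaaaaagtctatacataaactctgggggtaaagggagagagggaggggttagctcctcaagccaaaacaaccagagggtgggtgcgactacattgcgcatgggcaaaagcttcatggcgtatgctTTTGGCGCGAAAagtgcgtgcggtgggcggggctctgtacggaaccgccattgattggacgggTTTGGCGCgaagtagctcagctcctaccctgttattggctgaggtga
Cdc6 (chr11:98907901-98908150, plus strand): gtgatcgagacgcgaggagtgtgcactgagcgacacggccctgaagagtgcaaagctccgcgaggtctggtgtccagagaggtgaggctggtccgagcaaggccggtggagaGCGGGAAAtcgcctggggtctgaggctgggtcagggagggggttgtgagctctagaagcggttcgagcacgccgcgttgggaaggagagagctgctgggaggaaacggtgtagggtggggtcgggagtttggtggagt
Rrm2 (chr12:24708004-24708253, plus strand): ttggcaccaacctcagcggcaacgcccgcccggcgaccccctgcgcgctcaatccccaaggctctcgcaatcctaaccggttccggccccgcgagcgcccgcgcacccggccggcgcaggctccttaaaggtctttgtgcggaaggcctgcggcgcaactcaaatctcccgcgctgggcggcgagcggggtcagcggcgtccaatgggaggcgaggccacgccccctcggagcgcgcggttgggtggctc
Mcm5 holds 2 matches that overlap, at -153 to -146 and -149 to -142 from the start (counted as base 0), Mcm6 holds 3, at -110 to -103, -106 to -99 and -47 to -40, and Cdc6 holds 1, at -138 to -131. In the whole windows of 300 bases (250 before the start and 50 after), which were found for 44 of the 55 genes, 16 of 51 windows held at least 1 E2F match, or 31.4%, against 2.26% of all 32851 windows in the table and 3.89% of the 8551 windows of protein-coding genes with a GC content between 52.7% and 65.7%, the quartiles of the replication genes. The CCAAT motif (CCAAT) was in 56.9% and the cell-cycle homology region (TTTGAA) in 9.8% of the 51 windows, against 38.2% and 16% of windows of protein-coding genes and 39.7% and 10.7% of those in the same GC range. Windows of 32 of the 40 genes of G2 and mitosis showed another mix, with an E2F match in 2.94%, CCAAT in 79.4% and TTTGAA in 76.5% of 34 windows. A match is only a run of letters and says nothing of binding.

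Assembly of the active helicase from CDC45, the MCM ring and the GINS complex starts the fork, and all 8 genes of this role rose in tumor cKO, by a median log2 fold change of 1.62. Mcm10 (chr2:4989714-5012791, minus strand), which activates the assembled helicase, measured 8.498, 6.48 and 11.3 CPM in WT spleen and 9.83, 13.8 and 13.6 in cKO spleen. Tumor levels of Mcm10 were 18.8, 40.9 and 19.5 CPM in WT and 92.7, 86.8 and 112 in cKO. Tumor WT replicate 2 was the high library of its group, and still lay below all tumor cKO libraries. The rise was 1.87 ± 0.29 (adjusted p = 0.000461). Cdc45 (chr16:18780447-18811987, minus strand), the helicase cofactor, gave 13.2, 8.28 and 10.2 CPM in WT spleen and 17.5, 16.3 and 17.8 in cKO spleen. Tumor levels of Cdc45 were 27.6, 33.3 and 25.01 CPM in WT and 91.5, 72.7 and 105 in cKO. Its 4 groups formed 4 steps without overlap between neighbours, and the step in tumor was 1.65 ± 0.19 (adjusted p = 6.39e-05). Gins2 (chr8:120578633-120589304, minus strand), a GINS subunit, gave 17.98, 20.7 and 16.5 CPM in WT spleen and 24.3, 27.9 and 18.2 in cKO spleen. Tumor levels of Gins2 were 27.1, 35.4 and 23.02 CPM in WT and 58.4, 53.4 and 60.03 in cKO. Gins2 rose by 1.003 ± 0.19 (adjusted p = 0.00126). It shares 67.3% of its exonic bases with the opposite-strand gene Gse1, whose mean was 53.3 CPM in tumor WT and 45.2 in tumor cKO. The part of shared reads in the levels of Gins2 was not tested. Gins1 (chr2:150905400-150931280, plus strand) measured 3.64, 5.497 and 7.18 CPM in WT spleen and 5.06, 3.21 and 5.97 in cKO spleen. Tumor levels of Gins1 were 16.7, 20.2 and 14.9 CPM in WT and 51.9, 49.6 and 69.7 in cKO. Gins1 rose by 1.72 ± 0.26 (adjusted p = 0.000297). Its spleen groups overlapped, and both tumor groups lay above them. Ticrr, which recruits the firing machinery to licensed origins, rose by 1.89 ± 0.31, Wdhd1, which ties polymerase alpha to the fork, by 1.59 ± 0.16, and Gins3 by 1.16 ± 0.20. Gins4 was the smallest called change of all 53, at 0.46 ± 0.15 (adjusted p = 0.0302), and lost its call without tumor WT replicate 1 (adjusted p = 0.109), tumor WT replicate 2 (0.0518) or tumor cKO replicate 3 (0.132). It was not called either when the tumor libraries were fitted alone (0.0551) or without a filter on low counts (0.0767).

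The sliding clamp and its loaders were the most uneven role, with 5 of 7 genes higher in tumor cKO. Pcna (chr2:132249162-132253314, minus strand), the ring that holds the polymerases on DNA, measured 93.6, 86.1 and 81.3 CPM in WT spleen and 105, 104 and 103 in cKO spleen. Tumor levels of Pcna were 190.2, 167 and 193 CPM in WT and 295, 258 and 343 in cKO. Each group lay above the one before it without overlap, and the step from tumor WT to tumor cKO was 0.70 ± 0.12 (adjusted p = 0.00064), a 1.63-fold difference that was small beside the helicase genes. The processed copy Pcna-ps2 reached at most 6.35 CPM in any library. Rfc1 (chr5:65261850-65335670, minus strand), the large subunit of the main clamp loader, gave 129, 124 and 120 CPM in WT spleen and 118, 104 and 119 in cKO spleen. Tumor levels of Rfc1 were 52.8, 72.5 and 51.05 CPM in WT and 142, 137 and 185 in cKO. It was lowest in tumor WT, and tumor cKO stood 1.40 ± 0.15 above that (adjusted p = 5.25e-05). Rfc2 (chr5:134581366-134601805, plus strand), a small subunit of the same loader, had 60.1, 64.5 and 64.9 CPM in WT spleen and 52.8, 53.1 and 62.4 in cKO spleen. Tumor levels of Rfc2 were 41.3, 40.7 and 44.5 CPM in WT and 35.6, 35.7 and 39.3 in cKO. All 3 tumor cKO libraries were below all 3 tumor WT libraries, but the difference of -0.19 ± 0.12 did not pass the test (adjusted p = 0.203). Of its exonic bases 15.1% also lie in the opposite-strand gene Lat2, whose mean was 122 CPM in tumor WT and 40.8 in tumor cKO. In spleen the mean of Lat2 was 166 CPM in WT and 142 in cKO, so like Rfc2 it was lower in tumor in both genotypes. The part of shared reads in the levels of Rfc2 was not tested. Rfc5 had overlapping tumor groups, with 20.9, 35.8 and 16.03 CPM in WT and 29.7, 27.1 and 32.1 in cKO (0.28 ± 0.25, adjusted p = 0.399), and without tumor WT replicate 2, its highest library, the difference was 0.69 with an adjusted p of 0.0149. Rfc3 rose by 0.83 ± 0.21 and Rfc4 by 1.76 ± 0.30, and Dscc1, part of the loader that serves sister chromatid cohesion, by 1.91 ± 0.32. Of the exonic bases of Rfc4 12.6% are shared with the opposite-strand gene Eif4a2, and of those of Rfc5 10.7% with Wsb2.

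**Figure D3:**
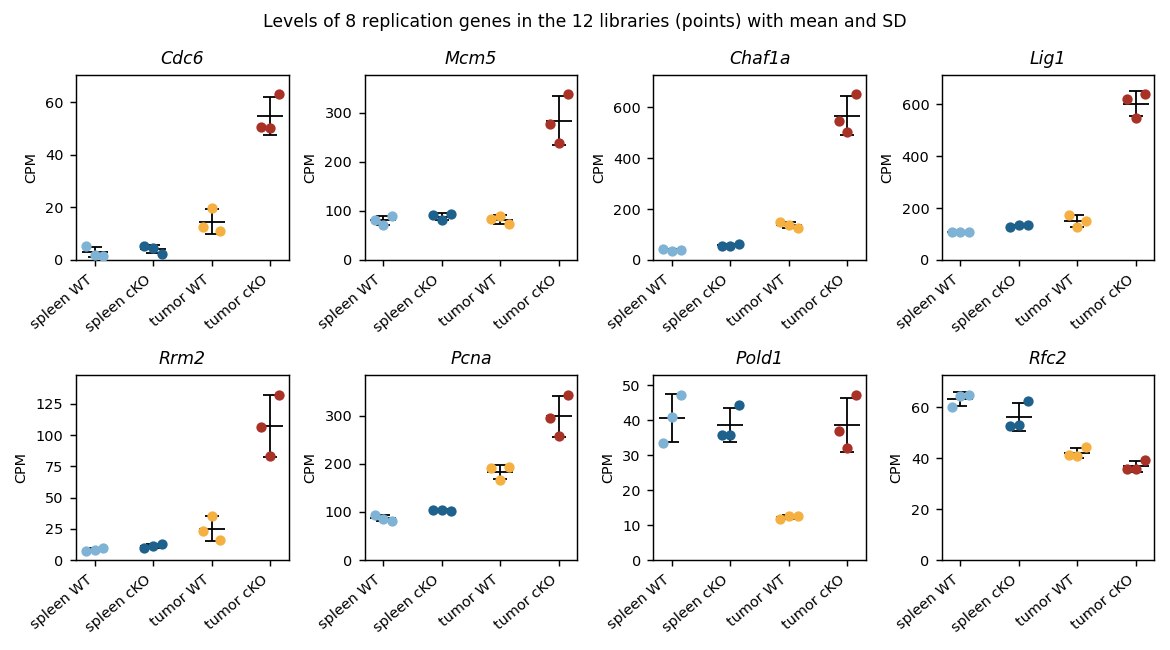
CPM of 8 replication genes in each library (points), with the mean and SD of the 3 libraries of each group (black), on axes from 0. Cdc6, Mcm5, Chaf1a, Lig1, Rrm2 and Pcna are highest in tumor cKO, Pold1 lies at 11.7 to 12.8 CPM in tumor WT, below the other groups, and Rfc2 is lower in both tumor groups than in spleen.

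Polymerase alpha with primase starts each new strand, and polymerases delta and epsilon extend the lagging and leading strands. All 9 genes of this role rose in tumor cKO, by a median log2 fold change of 1.64. Pola1 (chrX:93304767-93632155, minus strand), the catalytic subunit of polymerase alpha, measured 41.8, 34.8 and 35.3 CPM in WT spleen and 38.2, 65.9 and 47.3 in cKO spleen. Tumor levels of Pola1 were 37.3, 49.8 and 36.04 CPM in WT and 134, 109 and 153 in cKO. Tumor WT overlapped both spleen groups, and tumor cKO exceeded tumor WT by 1.68 ± 0.20 (adjusted p = 9.11e-05). Pold1 (chr7:44532746-44548849, minus strand), the catalytic subunit of polymerase delta, gave 33.6, 40.9 and 47.3 CPM in WT spleen and 35.8, 35.9 and 44.4 in cKO spleen. Tumor levels of Pold1 were 11.7, 12.8 and 12.7 CPM in WT and 36.8, 31.98 and 47.2 in cKO. Its tumor WT libraries were the low ones, at less than any spleen library, while tumor cKO overlapped spleen. The tumor genotypes differed by 1.64 ± 0.18 (adjusted p = 5.23e-05). Pole (chr5:110286306-110337474, plus strand), the catalytic subunit of polymerase epsilon, gave 11.2, 12.4 and 14.6 CPM in WT spleen and 14.1, 20.1 and 17.5 in cKO spleen. Tumor levels of Pole were 16.6, 26.2 and 17.4 CPM in WT and 67.5, 57.4 and 86.8 in cKO. Pole rose by 1.81 ± 0.22 (adjusted p = 8.87e-05). Prim1, the catalytic primase subunit, rose by 1.85 ± 0.19, Pold2 by 1.73 ± 0.23, Pole2 by 1.27 ± 0.30, Prim2 by 1.16 ± 0.20 and Pola2 by 1.08 ± 0.18. Pold3 rose least, by 0.76 ± 0.11, with the closest agreement between libraries of a group (SD of 2.15% of the mean in tumor WT and 5.59% in tumor cKO).

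Lig1 and Fen1 complete the Okazaki fragments, and both rose. Lig1 (chr7:13277283-13311433, plus strand), the ligase that seals the lagging strand, measured 108, 107 and 109 CPM in WT spleen and 127, 135 and 133 in cKO spleen. Tumor levels of Lig1 were 173, 127 and 151 CPM in WT and 621, 549 and 639 in cKO. It was among the 3 largest rises in tumor, at 2.01 ± 0.12 (adjusted p = 2.96e-06), a 4.02-fold higher level, and its spleen cKO libraries also lay above spleen WT. Fen1 (chr19:10199132-10204169, minus strand), the nuclease that trims the RNA primer flap, gave 23.1, 26.8 and 22.96 CPM in WT spleen and 31.4, 32.4 and 31.97 in cKO spleen. Tumor levels of Fen1 were 33.1, 40.5 and 36.6 CPM in WT and 71.5, 52.01 and 79.8 in cKO. Fen1 rose by 0.88 ± 0.16 (adjusted p = 0.000955). Of its exonic bases 78.8% lie in the opposite-strand gene Gm10143. Mean CPM of Gm10143 was 24.15 and 30.9 in spleen WT and cKO and 36.6 and 65.6 in tumor WT and cKO. For Fen1 the same means were 24.3, 31.9, 36.8 and 67.8. They were thus nearly equal in every group, as when reads in shared bases are counted for both genes whatever their strand. The reads of these genes cannot be told apart, and whether other overlaps were counted this way was not tested. The 3 subunits of replication protein A, which coats single-stranded DNA, rose by 1.21 ± 0.18 (Rpa1), 1.01 ± 0.19 (Rpa2) and 1.29 ± 0.27 (Rpa3). Rpa2 (chr4:132768332-132778752, plus strand) measured 16.8, 17.3 and 17.6 CPM in WT spleen and 20.3, 16.8 and 15.9 in cKO spleen. Tumor levels of Rpa2 were 10.2, 8.604 and 9.46 CPM in WT and 18.2, 15.03 and 23.7 in cKO. Like Pold1, it was lowest in tumor WT, and its tumor cKO libraries overlapped those of spleen.

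Genes that supply nucleotides held the largest rise of all. Rrm2 (chr12:24708241-24714146, plus strand), the small subunit of ribonucleotide reductase, which makes deoxynucleotides and limits the enzyme in S phase, measured 7.44, 7.83 and 10.02 CPM in WT spleen and 9.98, 11.6 and 12.8 in cKO spleen. Tumor levels of Rrm2 were 23.7, 35.7 and 15.9 CPM in WT and 106, 83.3 and 132 in cKO. Tumor WT libraries lay above all spleen libraries and far below tumor cKO, and the tumor genotypes differed by 2.09 ± 0.26 (adjusted p = 0.000118), a 4.26-fold difference. Rrm1 (chr7:102441695-102469771, plus strand), the large subunit, gave 94.99, 106 and 108 CPM in WT spleen and 120.3, 107 and 119.8 in cKO spleen. Tumor levels of Rrm1 were 103, 139 and 105 CPM in WT and 360.2, 304 and 409 in cKO. Its mean was 103 ± 6.93 CPM in spleen WT and 116 ± 20.4 in tumor WT (SD, n = 3), a difference that was not called (0.17 ± 0.14, adjusted p = 0.306), and the rise in tumor cKO was 1.63 ± 0.14 (adjusted p = 1.95e-05). Tyms (chr5:30058202-30073617, minus strand), which makes thymidylate, gave 6.22, 6.63 and 9.92 CPM in WT spleen and 8.22, 12.9 and 11.2 in cKO spleen. Tumor levels of Tyms were 11.1, 20.96 and 13.3 CPM in WT and 35.5, 24.6 and 46.4 in cKO. Tyms rose by 1.23 ± 0.29 (adjusted p = 0.00568). Tk1 (chr11:117815526-117826092, minus strand), the salvage thymidine kinase, gave 10.6, 13.2 and 18.1 CPM in WT spleen and 18.2, 14.6 and 9.66 in cKO spleen. Tumor levels of Tk1 were 24.7, 28.1 and 17.7 CPM in WT and 42.99, 36.97 and 43.5 in cKO. Its tumor groups did not overlap and differed by 0.81 ± 0.25 (adjusted p = 0.0218), a call that was lost without tumor WT replicate 3 (adjusted p = 0.0771), tumor cKO replicate 1 (0.0547) or tumor cKO replicate 3 (0.0615). Dut (chr2:125247190-125258608, plus strand), which removes dUTP so that uracil stays out of DNA, gave 19.7, 20.9 and 22.7 CPM in WT spleen and 22.8, 24.8 and 25.4 in cKO spleen. Tumor levels of Dut were 17.3, 31.8 and 16.03 CPM in WT and 63.2, 53.1 and 78.4 in cKO. Dut rose by 1.57 ± 0.23 (adjusted p = 0.000308). Ung (chr5:114130386-114139323, plus strand), the glycosylase that cuts uracil out of DNA, was low throughout, with 2.88, 2.26 and 2.27 CPM in WT spleen and 4.99, 5.01 and 4.55 in cKO spleen. Tumor levels of Ung were 3.66, 2.85 and 1.87 CPM in WT and 7.002, 7.76 and 9.14 in cKO. Its tumor WT level overlapped spleen WT, and it rose by 1.51 ± 0.29 in tumor cKO (adjusted p = 0.00163).

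Chromatin assembly factor 1 places histones behind the fork, and UHRF1 carries DNA methylation over to the new strand. Chaf1a (chr17:56040416-56068026, plus strand), the large subunit of the assembly factor, measured 42.7, 35.99 and 39.8 CPM in WT spleen and 54.96, 55.9 and 62.8 in cKO spleen. Tumor levels of Chaf1a were 150.1, 138 and 126 CPM in WT and 548, 501 and 651 in cKO. Its 4 groups formed 4 steps without overlap, with a step of 2.04 ± 0.13 between the tumor genotypes (adjusted p = 3.06e-06). Of its exonic bases 18.7% also lie in the opposite-strand gene Ubxn6, whose own mean was 61.6 CPM in tumor WT and 110.1 in tumor cKO. The mean of Chaf1a in tumor cKO was 567 ± 76.8 CPM (SD, n = 3), and the part of shared reads in it was not tested. Uhrf1 (chr17:56303321-56323486, plus strand) gave 28.2, 23.9 and 23.6 CPM in WT spleen and 42.6, 38.1 and 40.8 in cKO spleen. Tumor levels of Uhrf1 were 75.4, 109.7 and 60.8 CPM in WT and 292, 219.98 and 346 in cKO. Uhrf1 rose by 1.80 ± 0.21 (adjusted p = 7.07e-05). Chaf1b, the middle subunit of the assembly factor, rose by 0.98 ± 0.27, with an adjusted p of 0.0506 without tumor cKO replicate 3.

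Cyclin E with its kinase drives entry into S phase, and its 3 genes rose. Ccne1 (chr7:38097984-38107534, minus strand) measured 12.5, 17.2 and 16.6 CPM in WT spleen and 14.6, 15.7 and 16.3 in cKO spleen. Tumor levels of Ccne1 were 18.5, 30.2 and 13.6 CPM in WT and 65.2, 69.7 and 90.04 in cKO. Tumor WT overlapped both spleen groups, and tumor cKO stood 1.84 ± 0.25 above tumor WT (adjusted p = 0.000171). Ccne2 (chr4:11191351-11204779, plus strand) gave 9.105, 8.36 and 6.43 CPM in WT spleen and 8.44, 11.6 and 7.601 in cKO spleen. Tumor levels of Ccne2 were 15.001, 11.2 and 12.5 CPM in WT and 35.1, 39.02 and 51.2 in cKO. Ccne2 rose by 1.70 ± 0.22 (adjusted p = 0.000135). It shares 17.4% of its exonic bases with the opposite-strand gene Ints8, whose mean was 17.7 CPM in tumor WT and 17.8 in tumor cKO. Cdk2 (chr10:128697939-128705051, minus strand), the kinase partner, gave 17.2, 17.7 and 17.2 CPM in WT spleen and 15.7, 18.6 and 20.4 in cKO spleen. Tumor levels of Cdk2 were 22.3, 29.3 and 25.1 CPM in WT and 57.8, 53.6 and 63.6 in cKO. Cdk2 rose less, by 1.19 ± 0.15 (adjusted p = 0.000114). Timeless and TIPIN form the complex that keeps the fork together when it stalls, and both genes rose. Timeless (chr10:128232065-128252941, plus strand) gave 47.2, 45.6 and 51.3 CPM in WT spleen and 58.04, 56.8 and 56.5 in cKO spleen. Tumor levels of Timeless were 45.6, 73.96 and 42.3 CPM in WT and 136, 122 and 165 in cKO. Tipin (chr9:64281581-64305424, plus strand) gave 43.1, 38.4 and 42.3 CPM in WT spleen and 40.9, 45.7 and 48.1 in cKO spleen. Tumor levels of Tipin were 44.9, 57.3 and 34.2 CPM in WT and 165, 134 and 195 in cKO. For both, tumor WT overlapped spleen and tumor cKO did not, and the rise in tumor was 1.38 ± 0.19 for Timeless (adjusted p = 0.000178) and 1.85 ± 0.18 for Tipin (adjusted p = 3.38e-05).

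In spleen the same comparison of genotypes gave far smaller differences. None of the 55 genes was called higher or lower (edgeR), where 0.0297% of all genes tested were called higher and 0% lower. At an unadjusted p under 0.05, 10 of the 55 passed, all higher in cKO, against 4.66% of all genes tested in either direction, and DESeq2 and limma on RPKM called 0 of the 55 as well. Of the 55 log2 fold changes 43 were above 0, against 48.8% of all genes tested, with a median of 0.20 against 0.00. For 15 genes every spleen cKO library lay above every spleen WT library and for 1, Rfc1, every one lay below, against 5.94% and 5.43% of all genes tested. The 3 smallest p-values belonged to Chaf1a (0.55 ± 0.13, adjusted p = 0.483), Cdc45 (0.70 ± 0.20, adjusted p = 0.835) and Uhrf1 (0.68 ± 0.21, adjusted p = 0.894). The levels of these genes given above show the 3 spleen cKO libraries above the 3 spleen WT libraries in each case. Ung had the largest log2 fold change, 0.97 ± 0.30 (adjusted p = 0.894), at a mean of 4.85 CPM in spleen cKO against 2.47 in spleen WT. Uhrf1 passed the threshold when only the spleen libraries were fitted (adjusted p = 0.0407), when genes with few reads were kept (0.0178), and without tumor WT replicate 2 and tumor cKO replicate 3 together (0.0397), where Chaf1a passed too (0.031). The 4 clamp loader subunits Rfc1, Rfc2, Rfc3 and Rfc5 had log2 fold changes below 0, between -0.29 and -0.04, none of which passed. Macrophage markers were above 0 in 13 of 13 (median log2 fold change 1.19), T-cell markers in 9 of 11 (0.56) and erythroid markers in 5 of 5 tested (1.36), with none called. The erythroid markers summed to 9.83 to 26.1 CPM in spleen WT and 27.9 to 43.1 in spleen cKO, without overlap. For all of these markers their part in the result was not tested.

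**Figure D4:**
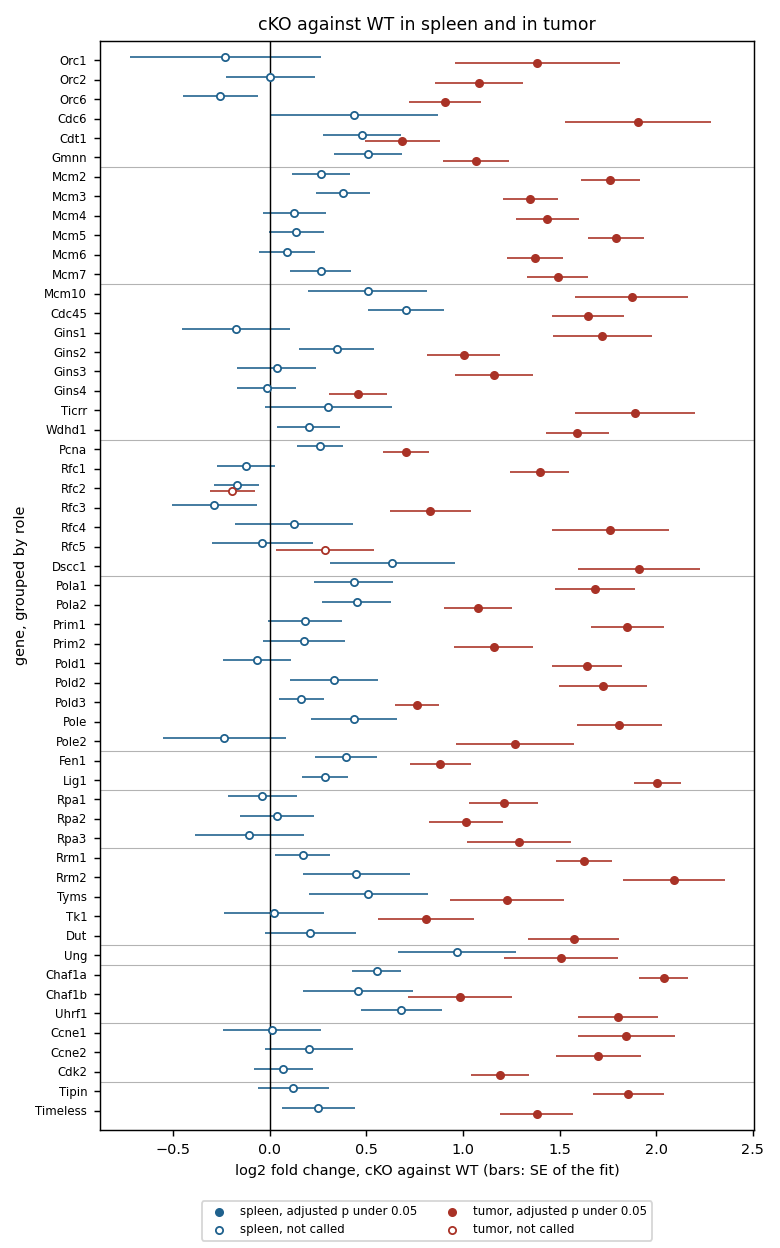
Log2 fold change of cKO against WT for each of the 55 genes (rows, grouped by role) in spleen (blue) and tumor (red), with bars of 1 SE of the fit and filled points for an adjusted p under 0.05. All blue points are open and lie between -0.29 and 0.97, and all red points are filled except Rfc2 and Rfc5.

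The difference between these genotype effects was tested directly as an interaction. It was called for 39 of the 55 genes, all with a larger rise in tumor, against 7.68% of all genes tested in that direction and 10.6% in the other, where no gene of the 55 was called. The median difference in log2 fold change was 1.25, against -0.10 over all genes tested. The largest belonged to Gins1 (1.90 ± 0.38, adjusted p = 0.00598), Ccne1 (1.83 ± 0.35, adjusted p = 0.00514) and Tipin (1.73 ± 0.26, adjusted p = 0.00184), 3 genes whose spleen groups overlapped. All 6 MCM2-7 genes, all 3 RPA genes, all 3 of cyclin E and CDK2, both fork protection genes and 8 of 9 polymerase and primase genes were called. In origin licensing only Orc2 and Orc6 were, out of 6, with Cdc6 at 1.47 ± 0.57 (adjusted p = 0.0933) and Cdt1 at 0.21 ± 0.28 (adjusted p = 0.649). Pcna (0.45 ± 0.17, adjusted p = 0.0822), Fen1 (0.49 ± 0.23, adjusted p = 0.147), Tyms (0.72 ± 0.42, adjusted p = 0.258) and Ung (0.54 ± 0.42, adjusted p = 0.403) were not called either. Of the 39 called genes 12 lost the call without at least 1 library, with an adjusted p between 0.0503 and 0.102. They were Mcm10, which lost it without any 1 of 10 libraries, Orc2, Prim2, Pole2, Cdc45, Ticrr, Rpa3, Rfc4, Rpa2, Rfc3, Pold3 and Uhrf1, and 9 of the 12 lost it without tumor cKO replicate 3. Cdc6 was called by DESeq2 (adjusted p = 0.0353), by limma on RPKM (0.0176), without a filter on low counts (0.000961) and without tumor WT replicate 2 (0.0394). Limma also called Orc1 (0.0331), Gmnn (0.0319) and Pcna (0.0198), and Orc1 passed without tumor WT replicate 2 (0.0141). Pcna passed without composition factors (0.0194) and, with Fen1 (0.0422), without tumor cKO replicate 2 (0.0411).

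The comparison of tumor with spleen in WT asks how the cells of the 2 sites differ without the knockout, and it shares the tumor WT libraries and the spleen WT libraries with the genotype comparisons above. Of the 55 genes 27 were higher in tumor, 6 were lower and 22 were not called, where 33.9% of all genes tested were called higher and 28.1% lower. The median log2 fold change was 0.41 against 0.12 over all genes tested. Every tumor library lay above every spleen library for 26 genes and below for 7, against 36.5% and 30.9% of all genes tested. The largest rises were in Cdc6 (2.28 ± 0.41, adjusted p = 0.000449), Chaf1a (1.80 ± 0.13, adjusted p = 1.25e-07) and Uhrf1 (1.70 ± 0.21, adjusted p = 1.52e-05). Gins1 (1.68 ± 0.27), Mcm10 (1.60 ± 0.30), Rrm2 (1.58 ± 0.27), Orc1 (1.55 ± 0.46), Cdc45 (1.44 ± 0.19) and Pcna (1.08 ± 0.12) also rose. Of the MCM2-7 genes Mcm3, Mcm6 and Mcm7 rose, by 0.41 to 0.61, and Mcm2, Mcm4 and Mcm5 were not called, at -0.09 to 0.15. Without composition scaling Mcm6 (adjusted p = 0.0609) and Mcm7 (0.155) were not called, and Mcm7 was not called without tumor WT replicate 2 (0.134), without spleen cKO replicate 3 (0.05) or without any 1 of the spleen WT libraries (0.0653 to 0.0937). The 6 genes that fell were Pold1 (-1.71 ± 0.18, adjusted p = 3.77e-06), Rfc1 (-1.08 ± 0.15, adjusted p = 4.8e-05), Rpa2 (-0.87 ± 0.19, adjusted p = 0.00162), Rpa1 (-0.81 ± 0.18), Pold2 (-0.74 ± 0.23) and Rfc2 (-0.58 ± 0.12). They encode some of the subunits of polymerase delta, the clamp loader and the single-strand binding complex. Of the other subunits, Rfc5 was called higher, with a mean of 13.4 CPM in spleen WT and 24.2 in tumor WT, and Rpa3 and Pold3 were not called. Rfc5 lost its call by limma on RPKM, without spleen WT replicate 2 and without tumor WT replicate 2. Orc1 lost its call without tumor WT replicate 2 (adjusted p = 0.0598) and Pold2 without tumor WT replicate 1 (0.0546) or 3 (0.0504). In all, 10 of the 33 called genes lost the call without at least 1 library. Library totals, B-cell, NK-cell, macrophage and fibroblast markers differed between the sites as well, and their part in the result was not tested. The fibroblast markers other than Thy1, which lymphocytes also express, summed to 0.301 to 3.402 CPM in spleen WT and 83.1 to 1648 in tumor WT, where replicate 2 was the highest.

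In cKO the tumor libraries differed from the spleen libraries at 52 of these genes. Of the 55 genes 51 were higher in tumor and 1, Rfc2, was lower, where 31.7% of all genes tested were called higher and 28.8% lower. The median log2 fold change was 1.58 against 0.07 over all genes tested, and every tumor library lay above every spleen library for 51 genes and below for 1, against 36.6% and 33.4% of all genes tested. The largest rises were in Cdc6 (3.75 ± 0.42, adjusted p = 1.01e-05), Gins1 (3.57 ± 0.28, adjusted p = 3.3e-07) and Chaf1a (3.29 ± 0.14, adjusted p = 2.08e-09), followed by Rrm2 (3.23 ± 0.28) and Orc1 (3.17 ± 0.48). Rfc2, which shares exonic bases with Lat2, fell by 0.61 on the log2 scale (adjusted p = 0.000569). The 3 genes not called were Gins4 (0.16 ± 0.15, adjusted p = 0.38), Rpa2 (0.10 ± 0.19, adjusted p = 0.654) and Pold1 (0.00 ± 0.17, adjusted p = 0.999). Of the 6 genes that fell in WT tumor, Rfc1 (0.44 ± 0.15, adjusted p = 0.0217), Rpa1 (0.44 ± 0.18, adjusted p = 0.0463) and Pold2 (0.65 ± 0.22, adjusted p = 0.023) were higher in cKO tumor than in cKO spleen. Rfc1 lost its call without spleen cKO replicate 2 (adjusted p = 0.0817) or tumor cKO replicate 3 (0.101), Pold2 without spleen cKO replicate 1 (0.0982), spleen cKO replicate 2 (0.0533) or tumor cKO replicate 3 (0.085), and Rpa1 without any 1 of 8 libraries (0.0533 to 0.209). Ung, at 0.72 ± 0.29 (adjusted p = 0.0474), lost it without any 1 of 9 libraries (0.0511 to 0.151) and without a filter on low counts (0.14). In the same contrast all 11 NK-cell markers (median log2 fold change -4.57) and all 10 B-cell markers (-7.05) were lower in tumor. Higher in tumor were 9 of 13 macrophage markers (1.92), 7 of 11 T-cell markers (1.29) and 7 of 7 fibroblast markers tested, Thy1 included (4.67), and the part of all these markers in the result was not tested.

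**Figure D5:**
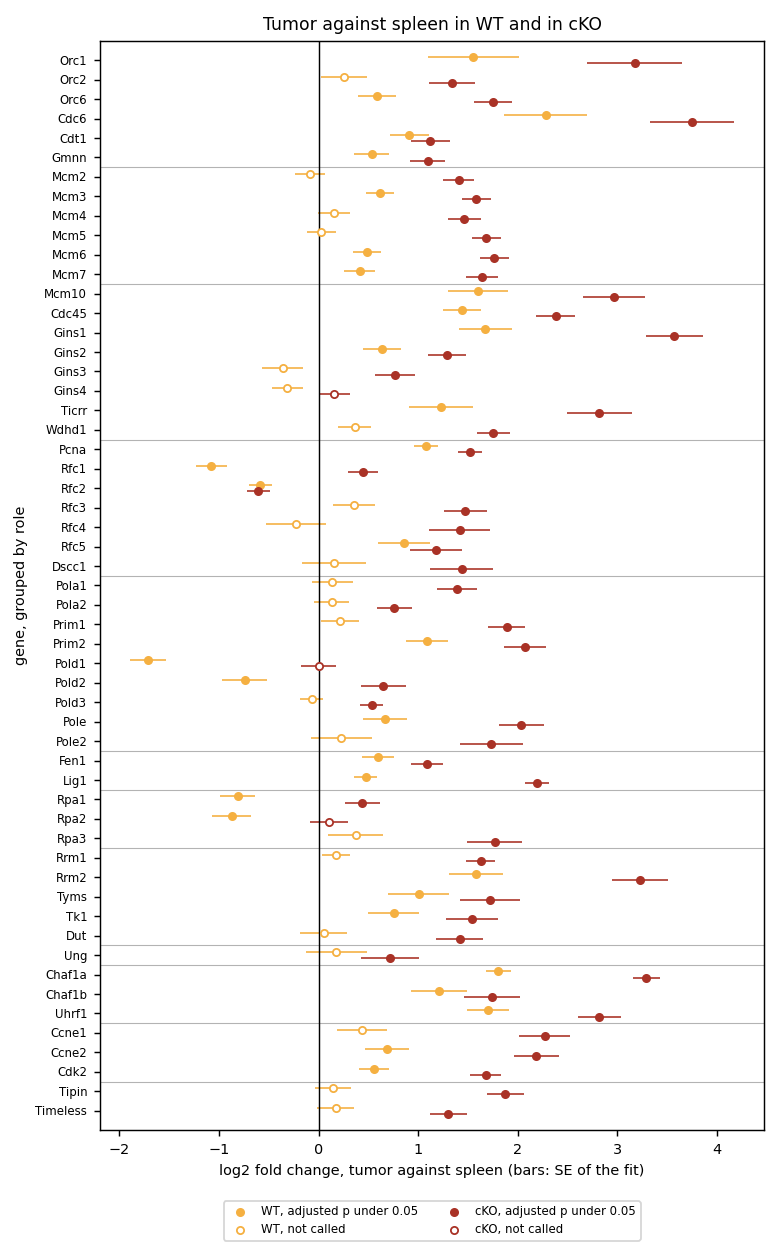
Log2 fold change of tumor against spleen for each of the 55 genes (rows, grouped by role) in WT (orange) and cKO (red), with bars of 1 SE of the fit and filled points for an adjusted p under 0.05. Orange points spread from -1.71 (Pold1) to 2.28 (Cdc6), and red points lie at or above 0 for every gene but Rfc2.

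The levels of different genes can be compared per length, on the scale of the RPKM values that the authors deposited, which divide reads by gene length. Pcna had the highest mean RPKM of the 55 in spleen WT (36.8 ± 2.87, SD, n = 3), in cKO spleen (44.6 ± 0.8402) and in WT tumor (70.1 ± 3.29). In tumor cKO Chaf1a (179 ± 23.4) and Lig1 (147 ± 10.3) were ahead of Pcna (129.6 ± 17.9). The intervals of 1 SD of Chaf1a and Lig1 overlap, as do those of Lig1 and Pcna. Mcm3 was among the 4 highest in all groups, with 27.5 ± 1.37 in spleen WT and 109.8 ± 13.2 in tumor cKO. Gins4 ranked 2 in spleen WT at 29.4 ± 3.499. The lowest gene was Orc1 in both spleen groups (0.424 ± 0.251 and 0.367 ± 0.048) and Ung in both tumor groups (0.4703 ± 0.152 and 1.52 ± 0.209). Chaf1a, with a mean RPKM of 12.1 ± 1.09 in spleen WT, ranked 12 there and 10 in cKO spleen, but 2 in WT tumor and 1 in cKO tumor.

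The libraries of a group agreed to different degrees. The median coefficient of variation (SD over mean CPM) of the 55 genes was 20.7% in WT tumor and 17.5% in cKO tumor, against 13.2% in WT spleen and 11.03% in cKO spleen. The highest was 69.1% for Cdc6 in spleen WT, where 1 library measured 5.31 CPM and the others 1.96 and 1.61, and 58.4% for Orc1 in tumor WT. Without tumor WT replicate 2 and tumor cKO replicate 3, 51 genes were called higher in tumor cKO than in tumor WT, with a median log2 fold change of 1.44. Of the 53 called with all libraries 50 kept the call, Cdt1 (adjusted p = 0.0647), Gins4 (0.15) and Rfc3 (0.0571) lost it, and Rfc5 gained it (0.0364). Without the same libraries 40 genes had a larger rise in tumor than in spleen.

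Other genes of replication that are not among the 55 were followed as a list of 40. In tumor 27 were higher in cKO and 2 lower, with a median log2 fold change of 0.93, against 0 called and 0.05 in spleen. Its leading entries, which encode further origin recognition subunits and an MCM binding protein, were mixed, with Orc4 higher in tumor cKO (0.43 ± 0.14, adjusted p = 0.0292) and Orc3 (-0.04 ± 0.19, adjusted p = 0.909), Orc5 (1.21 ± 0.46, adjusted p = 0.0537) and Mcmbp (0.14 ± 0.14, adjusted p = 0.459) not called. The 2 that fell were Samhd1, which breaks down deoxynucleotides (-1.45 ± 0.21, adjusted p = 0.000286), and Pold4, the small subunit of polymerase delta (-1.07 ± 0.15, adjusted p = 0.000218), named after their values were seen. A list of 40 genes of G2 and mitosis also moved, with 34 higher in tumor cKO and 1 lower, the centromeric histone gene Cenpa (-0.92 ± 0.22, adjusted p = 0.00563), and a median of 1.58. It includes Mki67, the proliferation marker (1.89 ± 0.19, adjusted p = 3.3e-05), Top2a, the topoisomerase of mitotic chromosomes (1.95 ± 0.21, adjusted p = 4.52e-05), and the mitotic cyclin genes Ccnb1 (1.48 ± 0.40, adjusted p = 0.0107) and Ccnb2 (1.03 ± 0.26, adjusted p = 0.00754). In spleen 36 of the 40 were above 0 in cKO, with a median of 0.44 and none called. In summed CPM the 55 replication genes stood to the list of G2 and mitosis as 1.08 to 1.14 in cKO tumor, 1.15 to 1.47 in WT tumor, 1.14 to 1.38 in cKO spleen and 1.44 to 1.64 in WT spleen.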

How the data were processed

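Total RNA was sequenced in 12 libraries, 3 in each of 4 groups taken from the sample titles. The reads were mapped to the mouse build mm10 with TopHat2 2.0.6, per the submitters' processing notes. Neither the counting program nor its strand setting is given in the sources used here, nor is any read filter. Raw counts, whole numbers per gene without normalization, were deposited by the authors, together with RPKM values, in which counts are divided by the listed gene length and the library total. All nonzero RPKM values matched those computed from the counts with 1 total per library, within a relative tolerance of 1e-04. Between 68.8% and 73.3% of counts from 1 to 49 were even, as when both mates of a pair are counted, so counting noise exceeds what the counts alone give.

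Counts were fitted in R 4.3.3 with edgeR 4.0.16 (filterByExpr, TMM factors, robust quasi-likelihood, 1 mean per group over all 12 libraries, 8 residual degrees of freedom). The threshold was an adjusted p of 0.05 (Benjamini-Hochberg, 16831 genes tested). The test was checked on simulated counts for cKO against WT in tumor (16401 genes), with 98 genes changed by a log2 of 1 and 102 by 1.5. Of these, 29.6% and 53.9% were recovered, with 7 false calls. Far fewer genes were changed there than were called in the data, so these shares do not give the recovery in the tumor comparison itself. Alternatives were DESeq2 1.42.0, limma 3.58.1 on log2 of RPKM plus 0.5, other scaling and filters, a replicate block, fits of the compared groups alone, and leaving out libraries. Gene positions are those of the count table. All 55 overlapped the gene of that name in GENCODE vM21 (GRCm38), 51 with the same ends. Promoters are from RefSeq.

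The members and lists were chosen with earlier results of these data known. Genes given in every library were a fixed choice per role, plus the 3 largest rises and falls of each comparison, or the 3 smallest p-values where fewer than 3 were called. Of each further list the 4 leading entries were named. The deleted gene itself is not reported here, and its level was not used to check the genotypes.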

Additional observations from a re-analysis of the deposited data

Results flagged for a closer look

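The effect of the knockout differed between tumor and spleen, by the interaction test (edgeR, adjusted over all genes tested), for 39 of the 55 replication genes, each with the larger rise in tumor. The largest differences in log2 fold change were 1.897 ± 0.38 for Gins1, 1.833 ± 0.35 for Ccne1 and 1.733 ± 0.26 for Tipin (SE of the fit), and in each the 3 tumor cKO libraries lay above the other 9. The macrophage markers differed the other way in the same test, with 11 of 13 called and a median of -3.65, and their part in these differences was not tested.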

How the results depend on the processing

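In tumor, between 48 and 53 of the 55 genes were higher in cKO and 0 lower when each library was left out in turn, with a median log2 fold change of 1.257 to 1.588; other scaling, no filter, DESeq2, limma on RPKM and the tumor libraries alone gave 52 or 53. In spleen the count of 0 became 1 without a filter on low counts, 1 with the spleen libraries alone and 2 without tumor WT replicate 2 and tumor cKO replicate 3; the cause was not tested. For tumor against spleen, leaving out each library gave 22 to 28 higher and 5 to 6 lower in WT, and 47 to 51 higher in cKO. In WT, 20 were higher without composition factors and 18 by limma on RPKM, against 27 in the main fit. Of all 16831 genes tested, 5128 were higher without composition factors and 5170 by limma on RPKM, against 5711. The share of the 55 called higher was thus nearer to that of all genes than in the main fit, and by limma close to it. The difference of the genotype effects was called for 30 to 44 genes with each library left out. Among genes called in the main fit or in the alternative, no direction reversed. This does not extend to genes called in neither, some of which had differences too small to fix a direction. Over all genes tested, without composition factors 3740 were higher and 2767 lower in tumor cKO, against 2761 and 3638 (median -0.12 became 0.06), and the difference of effects gave 1891 and 1369 against 1293 and 1779. Same-numbered libraries did not deviate together (1 of 18 pairs had a correlation over 0.1, and 8 of 18 were closest to their own number), and with the number as a replicate block 53 genes were higher in tumor cKO, 0 in spleen cKO, 26 in WT tumor, 49 in cKO tumor, and 38 differed between the genotype effects. The fewest counts of any of the 55 genes in a library were 10, for Orc1.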

Other observations

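The E2F transcription factors, some of which switch on S-phase genes while others repress them, and the retinoblastoma family, which holds activating factors back, were followed as a list of 13 genes. In tumor 9 were higher in cKO than in WT and 1 was lower (edgeR, adjusted over all genes tested), against 16.4% and 21.6% of all genes tested, with a median log2 fold change of 0.77, and in spleen none was called and the median was 0.21. The activating factors E2f1 (0.77 ± 0.19, adjusted p = 0.00701), E2f2 (1.62 ± 0.20, adjusted p = 0.000119) and E2f3 (0.58 ± 0.21, adjusted p = 0.0454) and E2f4, mostly a repressor (0.70 ± 0.12, adjusted p = 0.000856), were higher in tumor cKO, and E2f5 was lower (-1.28 ± 0.39, adjusted p = 0.0218, named after its value was seen). E2f6 (23.1 CPM in tumor cKO against 10.4 in tumor WT), E2f7 (13.5 against 3.79) and E2f8 (138 against 47.5) also had higher means. So did Tfdp1 (104 against 55.5) and Rbl1 of the retinoblastoma family (48.1 against 17.9). Lower means were found for Tfdp2 (3.08 against 5.14), Rb1 (25.2 against 30.3) and Rbl2 (30.2 against 33.4). Against spleen WT, the tumor WT libraries were higher for E2f1 (1.73 ± 0.20, adjusted p = 9.52e-06) and lower for E2f2 (-1.90 ± 0.21, adjusted p = 4.67e-06) and E2f4 (-0.86 ± 0.12, adjusted p = 5.77e-05), and E2f3 was not called (0.31 ± 0.22, adjusted p = 0.231). Over the list, 3 of 13 genes were higher and 6 lower in tumor WT than in spleen WT, against 33.9% and 28.1% of all genes tested.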
